A study of Mus musculus with 2 samples.

Results

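The genes described here encode inhibitors of cytokine signalling: Socs1, Socs2, Socs3, Socs5 and Cish of the SOCS family, the tyrosine phosphatases Ptpn1, Ptpn2 and Ptpn6, the SUMO ligase Pias1 and the adaptor Sh2b3. They were examined in chromatin immunocleavage sequencing (ChIC-seq) of lymphoid tissue inducer (LTi) cells, innate lymphoid cells that help to build lymph nodes and Peyer's patches. In ChIC-seq an antibody, here against the HMG-box factor TCF-1 encoded by Tcf7, brings micrococcal nuclease to chromatin, and the released DNA is sequenced. Members were chosen by position: an island, a stretch of clustered reads, was taken when it overlapped the RefSeq gene body plus 10 kb on either side by at least 1 bp. That gave 29 of the 19531 islands in the deposited table (mm10), at 10 of 10 genes.

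The series holds 2 libraries of 500 formaldehyde-fixed C57BL/6 cells, sorted as CD127+ CCR6+ and negative for lineage markers, KLRG1, NK1.1 and NKp46. In 1 library Tcf7fl/fl-VavCre cells had been taken from small intestinal lamina propria. In the other, Tcf7+/+ cells had been taken from Peyer's patches. The Vav promoter drives Cre in haematopoietic cells at large, so Tcf7 was not deleted in LTi cells alone. Genotype and tissue changed together, with 1 library each, so they cannot be told apart and no difference between conditions has a replicate check. The table names its read columns peak and control and ties neither to a sample, so a value is named by its column and says nothing on which genotype is higher.

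Cytokines such as interleukin-7, whose receptor chain CD127 marks LTi cells, signal through receptor-bound JAK kinases that phosphorylate STAT factors. STAT factors switch on SOCS genes, whose products carry an SH2 domain and a SOCS box and block or degrade the receptor complex, a classical negative feedback loop. Tyrosine phosphatases, PIAS proteins and SH2B3 (LNK) restrain the same pathway at the level of kinases, STAT factors and receptors.

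RefSeq start windows, from 250 bases before to 50 bases after a gene's start (GRCm38.p6, the mm10 build), were matched for 7 of the 10 genes. Socs2, Socs5 and Ptpn2 were not matched. Islands covered 5 of these 7 windows, at Socs1, Socs3, Cish, Ptpn1 and Pias1, where 38.2% of all windows of protein-coding genes met an island. That share also counts genes without any island in their locus. The windows of Socs3, Cish and Socs1 are printed with the first 20 bases from the start because these SOCS genes are classical STAT targets and all 3 windows lay under an island. At Socs3, Ptpn1 and Sh2b3 the RefSeq gene body begins upstream of the window's start site. For Socs3 it begins at 117970336, against a start site of 117969366, and motif positions count from that site. Capitals mark TTCNNNGAA, the core letters of a STAT element, and CTTTGA or CTTTGT, the core letters of a TCF/LEF element, found on either strand, and Socs1 had none.
Socs3, chr11:117969347-117969616, minus strand: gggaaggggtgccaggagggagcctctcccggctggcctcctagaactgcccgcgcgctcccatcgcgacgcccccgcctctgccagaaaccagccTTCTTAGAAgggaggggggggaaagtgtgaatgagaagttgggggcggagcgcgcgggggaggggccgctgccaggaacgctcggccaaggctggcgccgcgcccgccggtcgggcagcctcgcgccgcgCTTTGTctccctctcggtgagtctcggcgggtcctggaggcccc
Cish, chr9:107296409-107296678, plus strand: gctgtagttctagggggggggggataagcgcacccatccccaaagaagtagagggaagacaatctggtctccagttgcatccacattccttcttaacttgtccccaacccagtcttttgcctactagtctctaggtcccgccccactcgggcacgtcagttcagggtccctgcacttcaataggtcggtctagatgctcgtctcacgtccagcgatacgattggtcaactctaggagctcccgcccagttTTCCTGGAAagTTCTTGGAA
Socs1, chr16:10785517-10785786, minus strand: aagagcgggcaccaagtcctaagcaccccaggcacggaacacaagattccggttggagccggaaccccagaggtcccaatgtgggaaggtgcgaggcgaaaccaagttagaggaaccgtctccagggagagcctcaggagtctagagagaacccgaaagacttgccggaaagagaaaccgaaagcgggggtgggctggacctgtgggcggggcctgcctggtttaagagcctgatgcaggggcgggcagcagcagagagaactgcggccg
The Cish window held TTCNNNGAA at 2 places, as TTCCTGGAA at bases 1 to 9 and TTCTTGGAA at bases 12 to 20, counting the start base as 1. Its TCF/LEF match, TCAAAG at bases 26 to 31 on the opposite strand, lies beyond the printed stretch. In the Socs3 window TTCTTAGAA stood at -154 to -146 and CTTTGT at -24 to -19, counting back from the base before the start as -1. None of the 3 motifs was found in the 300 bases of the Socs1 window, nor in those of Ptpn1, Ptpn6, Pias1 or Sh2b3. Of 32817 RefSeq start windows of this length, 8.29% held TTCNNNGAA at least at 1 place and 0.457% at 2 or more. CTTTGA was held by 16.0% and CTTTGT by 18.7%. Unlike the share of windows that met an island, these shares were not limited to protein-coding genes. Such a match is a description of letters and not a binding site.

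Islands lay at all 10 genes, but under the authors' scaling the peak library exceeded the control library there by a modest factor. Over the 29 islands the peak library counted 712 reads and the control library 250, a pooled ratio of 1.43 (95% interval 1.23 to 1.65). Every ratio here is peak-library reads over control-library reads after the control reads were multiplied by 1.997, the factor within the authors' own fold values. The 95% intervals are exact conditional binomial (Clopper-Pearson) and express counting error alone. They count each read as a separate molecule, which PCR copies would not be. Across the 19513 nuclear islands that held under 200 peak-library reads, the pooled ratio was 1.62 (1.61 to 1.63), above the members' 1.43. Over all 19531 islands, which include a few with up to 28574 peak-library reads, it was 1.28 (1.27 to 1.29), below the members' value. Both lie inside the members' interval, and the direction of this comparison depends on whether those few islands are counted. Any common scaling moves these values alike, and the side of 1 depends on it. With equal totals over all islands the members' ratio became 1.11 (0.963 to 1.29). With equal totals over the nuclear islands under 200 peak-library reads it became 0.880 (0.761 to 1.02). Islands were called on peak-library reads, and what part of the excess comes from that selection was not tested.

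Of all 21887 protein-coding genes 54.7% had an island by the same rule, and of those with a locus as long as the members' (21.7 to 122.5 kb) 60.2% did. An island at the authors' FDR of 0.05 or less lay at 8 of the 10 genes, all but Socs5 and Ptpn2. Of the 11974 protein-coding genes with an island, 8821 had one at this FDR, and 7512 of 10363 in that length range. With genes without an island counted too, the shares were 40.3% of all protein-coding genes and 43.6% in the length range. Counted over islands, 13 of 29 (44.8%) were at this FDR, against 62.5% of the whole table. At an FDR of 1e-05 or less it was 3 of 29 (10.3%) against 20.7%, and these 3 lay at Socs3, Ptpn6 and Sh2b3. The FDR is the authors' own value and treats the control count as free of error.

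The members' median read counts were above those of the table in both libraries. The median member island had 24 peak-library and 9 control-library reads, against 16 and 4 over the table, and was 1800 bp wide against 1400 bp. Its median ratio was 1.43 against 1.84, and 3 of 29 ratios (10.3%) were under 1, against 10.2% of the table. With 20 or more peak-library reads in 19 of 29 islands (65.5%, against 36.1% of the table), the members' islands were read-rich and low in ratio at once. Islands over start windows of protein-coding genes had a median of 22 peak and 7 control reads across the table, a median ratio of 1.50 and a share at the FDR of 52.4%.

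**Figure D1:**
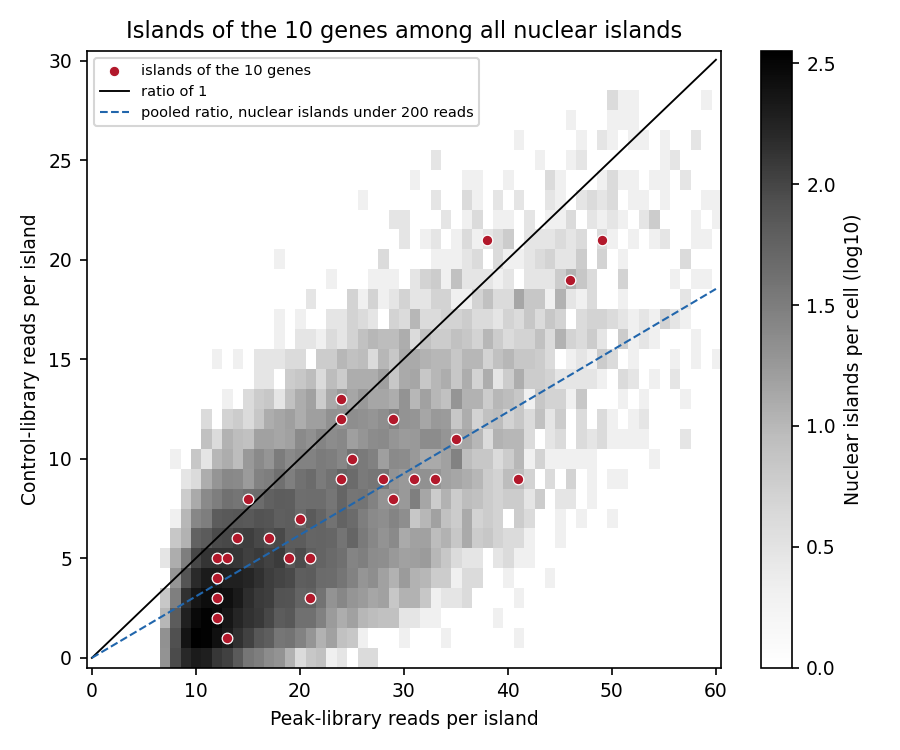
Peak-library reads (x axis) against control-library reads (y axis) per island, for the islands of the 10 genes (red, identical pairs fall on 1 point) over the density of all nuclear islands (grey, log10 of islands per cell). The axes stop at 60 and 30 reads, which leaves out 286 nuclear islands but no member; 26 of the 29 islands lie below the solid line of ratio 1, and the dashed line marks the pooled ratio of 1.62.

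Socs1 encodes an inhibitor that binds JAK kinases directly and blocks their activity. Its island over the start window, at 10785201 to 10787200 on chromosome 16, had 31 peak and 9 control reads, a ratio of 1.72 (0.802 to 4.12). A smaller one at 10781601 to 10782400, beyond the gene's end, had 12 peak and 3 control reads. Both passed the FDR, and both also lie within 10 kb of the protamine gene Prm2 and its neighbours Prm3 and Tnp2, so they are not particular to Socs1. With 43 peak and 12 control reads Socs1 had the highest pooled ratio of the 10 genes, 1.79 (0.930 to 3.74), an interval that includes 1.

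Socs3 encodes the inhibitor that binds the gp130 receptor chain and JAK kinases. The island centred on its start, at 117968401 to 117970400 on chromosome 11, had 41 peak and 9 control reads, a ratio of 2.28 (1.09 to 5.34), and passed the FDR. In a two-sided exact binomial test conditional on the summed reads, it had the lowest p of the 29 islands, 0.0251, with an adjusted p of 0.252 over all nuclear islands. Such a test compares these libraries and not the conditions. Further along the gene an island over its other end had 14 peak and 6 control reads, and one beyond that end had 24 and 9, and neither passed the FDR. The pooled ratio over 79 peak and 24 control reads was 1.65 (1.03 to 2.72), and all 3 islands lay in no other protein-coding locus.

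Cish, which encodes CIS, an SH2 protein that binds activated receptors and is a classical STAT5 target, had 5 islands in a locus of 26126 bp. That is 19.1 islands per 100 kb, the densest of the 10 loci, where the median gene with an island had 3.64. The island over the start window with the paired STAT letters, at 107295801 to 107297400 on chromosome 9, had 35 peak and 11 control reads, a ratio of 1.59 (0.791 to 3.48), and passed the FDR. Its most read-rich island lay 4659 bp upstream of the start, with 49 peak and 21 control reads and a ratio of 1.17 (0.688 to 2.05). Farther upstream an island with 12 peak and 2 control reads passed the FDR, inside the gene one had 12 and 5, and downstream one had 29 and 12. Of the 5 islands 4 also lie within 10 kb of Mapkapk3, a protein kinase gene. The pooled ratio was 1.35 (0.969 to 1.89) over 137 peak and 51 control reads, so that Cish combined the highest read total of the 10 genes with a ratio whose interval includes 1.

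Socs2, which encodes an inhibitor of growth hormone signalling, had 2 unlike islands. The one over a gene boundary, at 95415201 to 95418200 on chromosome 10, had 21 peak and 5 control reads, a ratio of 2.10 (0.772 to 7.14), and passed the FDR. Inside the gene an island with 15 peak and 8 control reads had a ratio of 0.939 (0.374 to 2.56). Together they gave 1.39 (0.718 to 2.85). Socs5, a less studied family member linked to interleukin-4 and growth factor receptors, had a single island over a gene boundary, at 87105801 to 87107600 on chromosome 17, with 24 peak and 9 control reads and a ratio of 1.34 (0.599 to 3.26), which did not pass the FDR. Over the 13 islands of the 5 SOCS family genes 6 passed the FDR and the pooled ratio was 1.47 (1.18 to 1.84).

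**Figure D2:**
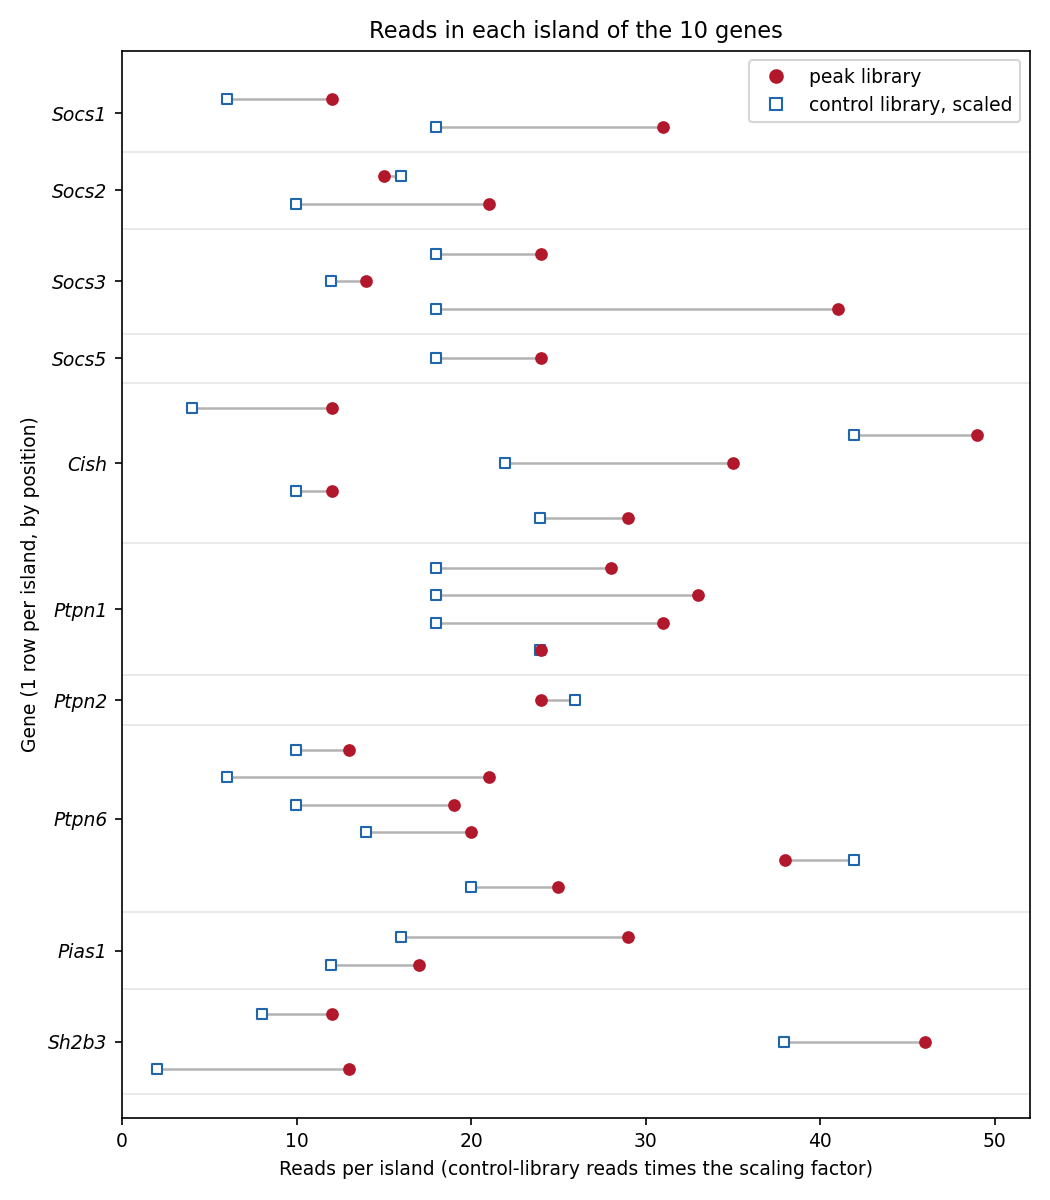
Reads in each of the 29 islands (1 row per island, ordered by position within a gene), for the peak library (red circles) and the control library times the scaling factor of 1.997 (open blue squares). The red circle lies to the right of the square in 26 rows, and to its left in 1 row each of Socs2, Ptpn2 and Ptpn6.

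Ptpn1 encodes PTP1B, a phosphatase anchored at the endoplasmic reticulum that acts on JAK2, TYK2 and the insulin receptor. It had 4 islands, and 3 of them passed the FDR. Over the start window the island at 167932001 to 167935000 on chromosome 2 had 33 peak and 9 control reads, a ratio of 1.84 (0.860 to 4.36). Inside the gene, an island at 167941001 to 167943800 held 31 peak and 9 control reads, and one at 167924401 to 167925600, upstream of the gene, had 28 and 9. Deep in the gene, at 167958401 to 167960600, 24 peak and 12 control reads gave a ratio of 1.00 (0.482 to 2.20). All 4 lay in no other protein-coding locus, and the pooled ratio was 1.49 (1.03 to 2.20) over 116 peak and 39 control reads.

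Ptpn2 encodes TC-PTP, which dephosphorylates JAK1, JAK3 and STAT factors. Its locus is 79132 bp long and held a single island, over a gene boundary at 67723601 to 67725400 on chromosome 18, with 24 peak and 13 control reads. The ratio of 0.925 (0.452 to 1.98) was the lowest of the 10 genes and the only gene value below 1, although its interval reaches past 1. Its peak-library count equals that of the Socs5 island, with more control-library reads.

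Ptpn6 encodes SHP-1, the SH2 phosphatase of haematopoietic cells that inhibitory receptors recruit. With 6 islands it had more than any other of the 10 genes, and 15.8 per 100 kb, yet none covered its start window. The 3 islands inside the gene had 60 peak and 15 control reads, a pooled ratio of 2.00 (1.12 to 3.80), and the 3 outside it had 76 peak and 36 control reads and 1.06 (0.702 to 1.62). The difference between them was not tested. Within the gene the island at 124723201 to 124724400 on chromosome 6 had 21 peak and 3 control reads, a ratio of 3.51 (1.05 to 18.4), and passed the FDR even at 1e-05. Neighbouring islands inside the gene had 19 peak and 5 control reads, which passed at 0.05, and 20 and 7, which did not.

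Outside Ptpn6 no island passed the FDR. The one nearest its start, at 124740601 to 124742600 and 1892 bp upstream, had 38 peak and 21 control reads and a ratio of 0.906 (0.519 to 1.63), the lowest of the 29. One at 124745601 to 124746800 had 25 peak and 10 control reads and one beyond the other end had 13 and 5. These outer islands lie in or near Grcc10, Atn1, Emg1 and Phb2 in a gene-dense stretch, and all 6 islands fall into at least 1 other protein-coding locus. Over the whole locus the ratio was 1.34 (0.961 to 1.88), so the gene's value depends on whether its flanks are counted.

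Pias1, which encodes a SUMO ligase that restrains activated STAT factors, had 2 islands at or near its start and none in the rest of its 102514 bp. The island at 62976601 to 62980200 on chromosome 9, inside the gene, had 29 peak and 8 control reads, a ratio of 1.82 (0.810 to 4.60), and passed the FDR. The one over the start window, at 62980801 to 62981800, had 17 peak and 6 control reads and did not pass. Both lay in no other protein-coding locus, with a pooled ratio of 1.65 (0.889 to 3.24).

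Sh2b3 encodes LNK, an adaptor that restrains the receptor KIT and JAK2 in blood cells. Its island with the most reads, at 121836601 to 121839200 on chromosome 5, covered the outer gene boundary and began 497 bp upstream of the start site of the RefSeq window. It had 46 peak and 19 control reads and a ratio of 1.21 (0.697 to 2.19), and did not pass the FDR. Farther upstream, at 121840601 to 121842200, lay the member island with the highest ratio, 6.51, from 13 peak and 1 control reads, with an interval of 0.978 to 277. Its FDR in the authors' deposited table was 2.19e-07, yet a single control-library read decides the ratio. Beyond the gene's other end an island had 12 peak and 4 control reads, and the pooled ratio of the gene was 1.48 (0.921 to 2.46).

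**Figure D3:**
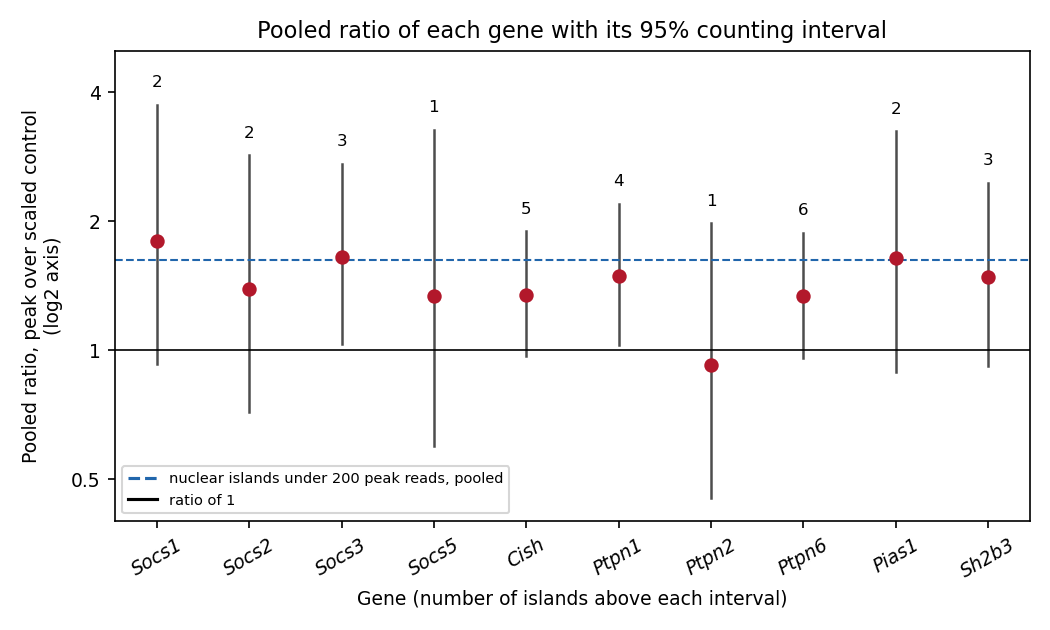
Pooled ratio of peak-library over scaled control-library reads per gene (points, log2 axis) with exact 95% counting intervals (lines) and the number of islands above each. Values run from 1.79 at Socs1 to 0.925 at Ptpn2, all 10 intervals overlap, and those of Socs3 and Ptpn1 lie above 1.

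In order, the pooled ratios were 1.79 at Socs1, 1.65 at Socs3 and at Pias1, 1.49 at Ptpn1, 1.48 at Sh2b3, 1.39 at Socs2, 1.35 at Cish, 1.34 at Ptpn6 and at Socs5, and 0.925 at Ptpn2. No neighbours in this order, and no pair of genes, had separate intervals, since the highest lower bound was 1.03 and the lowest upper bound 1.88. The interval lay above 1 at 2 of 10 genes, Socs3 and Ptpn1, where 26.1% of protein-coding genes with an island reached this. For Ptpn1 this depended on the flank, as the gene body alone and 5 kb both gave 1.47 (0.961 to 2.30). With gene bodies alone the interval of Ptpn6 lay above 1, at 2.00 (1.12 to 3.80). The median of the 10 genes was 1.43, against 1.63 for all protein-coding genes with an island, and 3 of the 10 exceeded that median. Over single islands the interval lay above 1 at 2 of 29 (6.90%), against 15.1% of nuclear islands.

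No member island passed the binomial test after Benjamini-Hochberg adjustment, while 2 of the 29 had an unadjusted p under 0.05. Of all 19528 nuclear islands 55 passed (0.282%) and 2977 had an unadjusted p under 0.05.

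Most of the genes carried an island at a boundary. An island covered the RefSeq start or end of the gene at 8 of the 10. It did so at 7643 of the 11974 protein-coding genes with an island, which is 34.9% of all protein-coding genes. The 5 islands over start windows had 157 peak and 44 control reads, a pooled ratio of 1.79 (1.27 to 2.56), and 4 of them passed the FDR, all but that of Pias1. Across the table, islands over start windows of protein-coding genes had a pooled ratio of 1.42 (1.40 to 1.43) and those over none 1.80 (1.78 to 1.81). Split by gene boundaries, the members had 1.46 (1.14 to 1.88) in the 9 islands over a boundary and 1.41 (1.18 to 1.70) in the 20 others, and these intervals overlap. Islands touching a gene body numbered 18, with 1.50 (1.24 to 1.81), and the 11 outside had 1.32 (1.04 to 1.68).

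**Figure D4:**
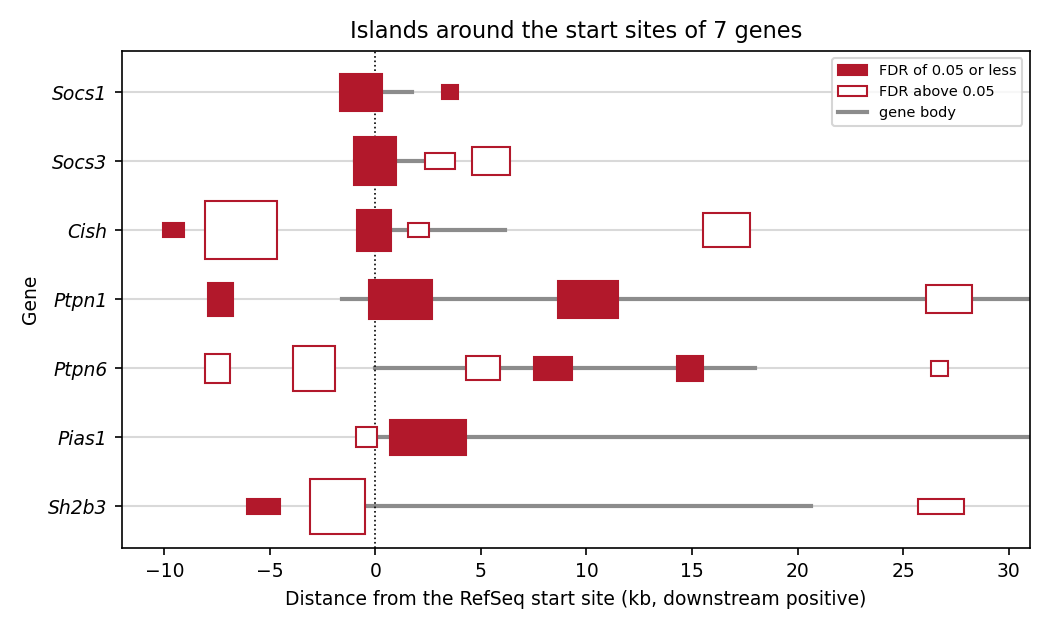
Islands around the RefSeq start site (dotted line) of the 7 genes with a matched window, in kb with downstream positive; box width is the island's width, box height is proportional to its peak-library reads, and grey bars are gene bodies, those of Ptpn1 and Pias1 running past the axis. Filled boxes passed the authors' FDR of 0.05. Boxes cross the dotted line at Socs1, Socs3, Cish, Ptpn1 and Pias1, and not at Ptpn6 or Sh2b3.

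Neighbouring genes shared much of this signal. Of the 29 islands 15 lay within 10 kb of another protein-coding gene, and their pooled ratio of 1.42 (1.16 to 1.76) was close to the 1.43 (1.16 to 1.77) of the 14 that did not. At the edge of the rule, the outermost islands inside were at Cish, 9417 bp beyond the gene with 29 peak and 12 control reads, and 9059 bp beyond it with 12 and 2. Just outside lay islands with 31 peak and 5 control reads at 10156 bp from Sh2b3, inside Pheta1, and with 31 peak and 3 control reads at 11008 bp from Socs1.

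The pathway's other genes were also met by islands. Of 16 other inhibitors 14 had an island and 13 had one at the FDR, where 54.7% and 40.3% of all protein-coding genes did. Dok1, which encodes an adaptor that dampens tyrosine kinase signals, had 49 peak and 6 control reads and a pooled ratio of 4.09 (1.75 to 11.7), Pias3, whose product binds STAT3, had 3.36 (1.51 to 8.82) from 47 peak and 7 control reads, and Socs4 had 2.69 (1.25 to 6.63) from 43 peak and 8 control reads. Sh2b1 was lowest, at 1.02 (0.638 to 1.66), and Socs6 and Sh2b2 had no island. The list's median gene ratio was 1.68, and 29 of its 48 islands (60.4%) passed the FDR, against 62.5% of the table.

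All 11 genes for JAK kinases and STAT factors had an island at the FDR. This held for 8821 of the 11974 protein-coding genes with an island, which is 40.3% of all protein-coding genes. Jak1, the kinase bound by the receptor chain CD127, stood highest at 2.18 (1.52 to 3.21), followed by its relative Tyk2 at 1.97 (1.15 to 3.59) and Stat5b at 1.75 (1.30 to 2.38), and Stat6 stood lowest at 1.11 (0.744 to 1.68). Stat5a shares islands with Stat5b and with Stat3. The median gene ratio was 1.52 and 30 of 52 islands (57.7%) passed, against 62.5% of the table. All 15 cytokine receptor genes had an island, 14 of them at the FDR, beside 54.7% and 40.3% of all protein-coding genes. Il2rb, the chain shared by the interleukin-2 and interleukin-15 receptors, stood at 3.03 (1.90 to 5.06), Il15ra at 2.70 (1.03 to 8.99), Il23r at 1.81 (1.27 to 2.62) and Il2rg, the common gamma chain, at 1.13 (0.646 to 2.06). The median gene ratio was 1.56, and 32 of 55 islands (58.2%) passed, also below the 62.5% of the table. Set beside these lists, the 10 inhibitor genes had the lowest median and the lowest share of islands at the FDR, differences that were not tested. The pooled ratios were 1.43 (1.23 to 1.65) for the 10 genes, 1.53 (1.36 to 1.72) for the other inhibitors, 1.59 (1.40 to 1.81) for kinases and STAT factors and 1.52 (1.36 to 1.71) for receptors, and these intervals overlap.

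**Figure D5:**
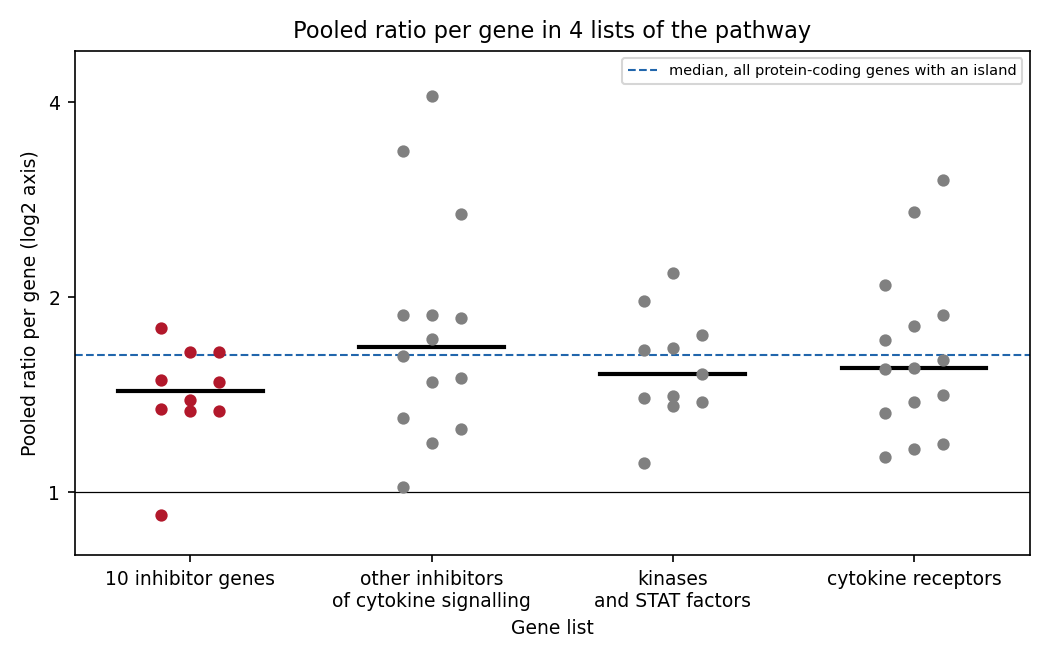
Pooled ratio per gene (log2 axis) for the 10 inhibitor genes (red) and 3 lists of the same pathway (grey), genes with an island only; black bars are list medians and the dashed line is the median of all protein-coding genes with an island, 1.63. Red points lie between 0.925 and 1.79, while the other inhibitors reach 4.09 at Dok1.

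All 9 listed genes of LTi cells and group 3 innate lymphoid cells (ILC3), among them Kit and the sort marker gene Il7r, had an island, where 54.7% of all protein-coding genes did. Of the islands at these genes 51 of 60 (85.0%) passed the FDR, against 62.5% of the table. At NK cell and ILC1 genes 5 of 5 passed, at ILC2 genes 5 of 7 and at T cell genes 3 of 6. At B cell genes 5 of 12 passed, at myeloid genes 2 of 3 and at epithelial genes 1 of 2. The pooled ratio was 2.19 at LTi and ILC3 genes, 2.07 at NK cell and ILC1 genes and 1.97 at ILC2 genes. It was 2.25 at myeloid, 1.79 at epithelial, 1.52 at B cell and 1.50 at T cell genes. Presence of an island cannot check the sorted cells, as all 6 listed B cell genes had one too. Chromatin signal does not measure expression, and the Tcf7 locus could not check the genotype labels because neither read column is tied to a sample. Islands were present at 6 of 6 B cell genes, 3 of 6 NK cell and ILC1 genes and 3 of 5 ILC2 genes. They were also present at 3 of 5 T cell genes, 2 of 5 myeloid and 2 of 5 epithelial genes. Apart from the B cell genes these counts run between 2 of 5 and 3 of 5, beside the 54.7% of all genes. No difference between the lists was tested. The listed genes without an island were Ncr1, Tbx21, Gzmb, Il13, Il5, Cd8a, Cd6, Csf1r, Lyz2, Itgam, Epcam, Vil1 and Krt20. What part other cells have in the signal at the inhibitor genes was not tested. Over all islands there were 483771 peak-library and 189291 control-library reads, while full library depth is not known from the table.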

How the data were processed

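ChIC-seq with an anti-TCF-1 antibody was done on 500 cells per library, fixed in 1% formaldehyde for 10 minutes and digested for 3 minutes at 37 °C, per the labels' protocols. The submitters' processing notes name Bowtie2 2.4.2, the mm10 build and SICER 2.0; the window, gap and duplicate settings were not stated. The deposited read counts are whole numbers per island. The file headers name them read counts and do not state whether they were scaled. A fold per island was also deposited by the authors, and 1 scaling factor of the control reads, 1.997, gives it back in every island with control reads. The p-value and FDR per island were deposited by the authors. Starts and ends are given counted from 1.

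Genes came from a RefSeq table (GRCm38.p6, 21887 protein-coding genes on placed nuclear chromosomes) and start windows from RefSeq sequences of that build. Intervals and binomial tests (two-sided, doubled smaller tail, Benjamini-Hochberg over nuclear islands) used Python 3.11.15, numpy 2.4.6, pandas 2.3.3, scipy 1.17.1 and matplotlib 3.10.9, and were tested on simulated data. Conditions were not tested against each other, as each had 1 library. The members, gene lists, alternatives and naming rule were chosen with earlier results of these data known. The rule names all 10 genes, their islands with 20 or more peak-library reads, lowest FDR or nearest the start, and per pathway list the 3 highest and the lowest pooled ratio among genes with 2 or more islands and up to 3 genes without an island. Other islands of the 10 genes are given as values. Alternatives changed the flank, overlap, island set, FDR and scaling.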

Additional observations from a re-analysis of the deposited data

How the results depend on the processing

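All 10 genes kept an island under each alternative in flank, overlap and island set except that 7 had one outside other loci. The number of islands was 18 with gene bodies alone, 51 with 50 kb on either side, 19 with at least 20 peak-library reads and 14 without islands in another locus. Islands at the FDR numbered 25 with 50 kb and 6 without shared islands, 3 at 1e-05 and 0 by the exact binomial test. The pooled ratio of 1.43 became 1.11 (0.963 to 1.29) with equal totals over all islands and 0.880 (0.761 to 1.02) with equal totals over nuclear islands with fewer than 200 reads, so the side of 1 depends on the scaling. These scalings shift every ratio by -0.36 and -0.70 on the log2 scale, and no scaling by 1.00. With equal totals 19 of the 29 islands lay above 1 and 10 below, against 26 and 3. Genes with an interval above 1 numbered 1 with 5 kb, 6 with 50 kb, 9 unscaled and 0 with either equal total. With equal totals over those nuclear islands Cish (0.830), Ptpn1 (0.919), Ptpn6 and Socs5 (0.824 each), Sh2b3 (0.914) and Socs2 (0.855) moved below 1. Ptpn2 stayed below 1 under this scaling, at 0.570. Ptpn2 stood above 1 with 50 kb (1.23) and unscaled (1.85). No paired analysis was possible because each group has 1 library. Depth limits single islands: a median of 9 control-library reads leaves wide intervals.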

Other observations

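Between 10 and 50 kb from the 10 genes lay 22 further islands with 403 peak and 116 control reads, a pooled ratio of 1.74 (1.41 to 2.16), 12 of them (54.5%) at the FDR, against 62.5% of the table. These islands were described after their values were seen, and many lie inside other genes. The 4 around Socs1 had 74 peak and 14 control reads and a pooled ratio of 2.65 (1.48 to 5.08). Of these, 3 form a group beyond the gene's end on chromosome 16, outside any protein-coding gene: 31 peak and 3 control reads at 10770801 to 10772800, 14 against 3 at 10768601 to 10769800, and 12 against 1 at 10767201 to 10768000. The first had a ratio of 5.17 (1.61 to 26.5), above that of either island within 10 kb of Socs1, with overlapping intervals.

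An island 19665 bp from Socs3, inside Pgs1, had 14 peak and 0 control reads. The exact lower bound of its ratio, which takes the counting error of both libraries, was 1.66. On the higher-coordinate side of Socs5, 12354 bp outside the gene, 14 peak and 1 control reads gave a ratio of 7.01 (1.07 to 296). None of these passed the binomial test after adjustment over all nuclear islands, with adjusted p of 0.133 for the first Socs1 island, 0.180 at Socs3 and 0.280 at Socs5. No island lay in this range around Socs2 or Pias1.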
